A study of Mus musculus with 21 samples.

Results

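Mouse fibroblasts treated with transforming growth factor beta 1 (TGFb1) together with interleukin 1 beta (IL1b) were compared with fibroblasts that received the solvent dimethyl sulfoxide (DMSO) and no cytokine. The comparison was chosen by treatment label and took the 3 libraries labelled TGFb1 + IL1b and the 3 labelled DMSO, 6 of the 21 libraries in the series. All were made from total RNA of cells labelled as Ly6C+/Sca-1+ fibroblasts that had been stimulated in culture. Every group held 3 libraries, and the reference groups used here were TGFb1 with no named solvent, TGFb1 + DMSO, and TGFb1 + TNF (tumour necrosis factor). The TGFb1 + IL1b label names no solvent, so that the groups compared may differ in DMSO as well as in the cytokines. The labels give no dose, exposure time or passage, and they do not say whether libraries of a group came from separate cultures. The p-values therefore measure the spread between these libraries, which may be technical.

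TGFb1 signals through receptor kinases and SMAD proteins and is the standard stimulus for turning cultured fibroblasts into matrix-producing, contractile cells. IL1b binds the receptor Il1r1 with its partner Il1rap and signals through MYD88 and IRAK kinases to NF-kB and AP-1 transcription factors, which drive chemokines, IL6 and acute phase proteins. Both cytokines are present in tissue that is inflamed and scarring.

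Libraries held 19796379 to 29276382 counts, and the 6 compared held 23546115 to 28441137. Levels are given as CPM, counts scaled to a common library size with a correction for library composition and not scaled by gene length, so they compare libraries and not genes. All 14 fibroblast markers had counts in both groups, and their summed level was 50585 to 50901 CPM with DMSO and 84616 to 87174 CPM with TGFb1 + IL1b, with Col1a1 as the most abundant gene. Of the 14, 5 rose and 8 fell (median log2 fold change -0.56, -0.91 with solvent adjustment as described below). Ly6a, which encodes Sca-1, was present at 136, 146 and 143 CPM with DMSO and fell to 77.6, 75.2 and 74.9 CPM (log2 fold change -0.90 ± 0.068, adjusted p = 5.74e-15). Ly6c1, which encodes the Ly6C antigen and has a close copy in Ly6c2, stood at 49.5, 51.7 and 48.2 CPM with DMSO and fell to 19.4, 18.0 and 20.02 CPM (-1.38 ± 0.093, adjusted p = 9.67e-19). Of 20 immune cell markers, 9 were at 0 counts with DMSO and 11 with TGFb1 + IL1b, Ptprc and Cd3e in both, and the summed level was 3.16 to 4.56 CPM with DMSO and 7.96 to 9.27 CPM with TGFb1 + IL1b. The 14 epithelial markers summed to 11.7 to 14.3 CPM and 3.09 to 3.98 CPM, with Krt8 and Krt18 at 0 in both, and the 12 endothelial markers to 235 to 240.0 CPM and 275 to 289 CPM, nearly all from Eng, with Cldn5 and Tie1 at 0 in both. The mural marker sum went from 996 to 1067 CPM to 675 to 711 CPM, with Pdgfrb as its most abundant gene, and the mesothelial sum from 13.3 to 16.7 CPM to 30.4 to 33.3 CPM, with Wt1 as its most abundant gene. The part of these marker changes in the results was not tested, and in bulk RNA fewer cells of a type cannot be told apart from less RNA per cell.

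Treatment with both cytokines changed most of the transcriptome. Of 16197 genes tested with edgeR's quasi-likelihood test (Benjamini-Hochberg adjusted p under 0.05), 10995 differed from DMSO (67.9%), 5490 higher (33.9%) and 5505 lower (34%). Changes of at least 2-fold were found for 4350 genes (26.9%), 1857 higher (11.5%) and 2493 lower (15.4%). TGFb1 with no IL1b differed from DMSO in 10292 genes (63.5%), 5022 higher (31%) and 5270 lower (32.5%), with 3821 at 2-fold or more (23.6%), 1520 of them higher (9.38%) and 2301 lower (14.2%). Adding IL1b to TGFb1 moved 5600 genes (34.6%), 2787 higher (17.2%) and 2813 lower (17.4%), with 844 at 2-fold or more (5.21%), 537 of them higher (3.32%) and 307 lower (1.9%). These comparisons share the DMSO, the TGFb1 or the TGFb1 + IL1b libraries, so their values are set side by side below and are not independent. The TGFb1 libraries enter TGFb1 against DMSO and TGFb1 + IL1b against TGFb1 with opposite sign. Error in them alone can make a gene look changed by TGFb1 and moved back by IL1b. The shares over all genes tested given here are the background for the list counts below.

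Solvent was examined with the TGFb1 + DMSO libraries. These measure it only in cells with TGFb1, and the series has no untreated group without DMSO. Whether DMSO acts alike without TGFb1 was not tested, and the adjusted values below take it to do so. DMSO added to TGFb1 changed 993 genes (6.13%) and 53 by 2-fold or more (0.327%). A solvent-adjusted contrast, which adds the TGFb1 + DMSO against TGFb1 difference to the one with DMSO, called 8863 genes (54.7%), 4647 higher (28.7%) and 4216 lower (26%). It kept 8559 of the 10995 calls (77.8%) and 3526 of the 4350 calls of 2-fold or more (81.1%). The contrast has a wider error. Of the 824 calls of 2-fold or more that it lost, 87 had 0 counts in every TGFb1 or every TGFb1 + DMSO library. The adjusted values of those genes are poorly determined. Among 2417 genes that changed 2-fold or more and reached 5 CPM in a group, 14 calls were lost. The median size of the solvent difference among the 2-fold genes was 0.216 on the log2 scale, against 1.85 for the difference from DMSO.

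The 3821 genes that TGFb1 alone changed 2-fold or more were then sorted by where IL1b left them. A gene was counted as back at baseline when IL1b moved it against the TGFb1 change and the 95% interval of its difference from DMSO lay within 1.5-fold. It was counted as staying changed when it also differed from DMSO by 2-fold or more in the TGFb1 direction, and as past baseline when it differed by that much in the other direction. New genes were those held by TGFb1 within 1.5-fold of DMSO (95% interval) that IL1b moved to at least 2-fold from DMSO. The 3 comparisons chose these members, so the values that follow within each class describe it and give no test of it. Of the 3821 genes, 3148 stayed changed (82.4%), 33 were back at baseline (0.864%) and 8 were past it (0.209%). The other 632 met none of these rules. Of them 301 still differed from DMSO in the TGFb1 direction by less than 2-fold, 12 differed in the opposite direction by less than 2-fold and 319 did not pass. IL1b moved 282 of the 632 against the TGFb1 change past the threshold, 86 of the 319 among them, so the set is not one of partial recovery as a whole. New genes numbered 51 higher (0.315% of genes tested) and 28 lower (0.173%).

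**Figure D1:**
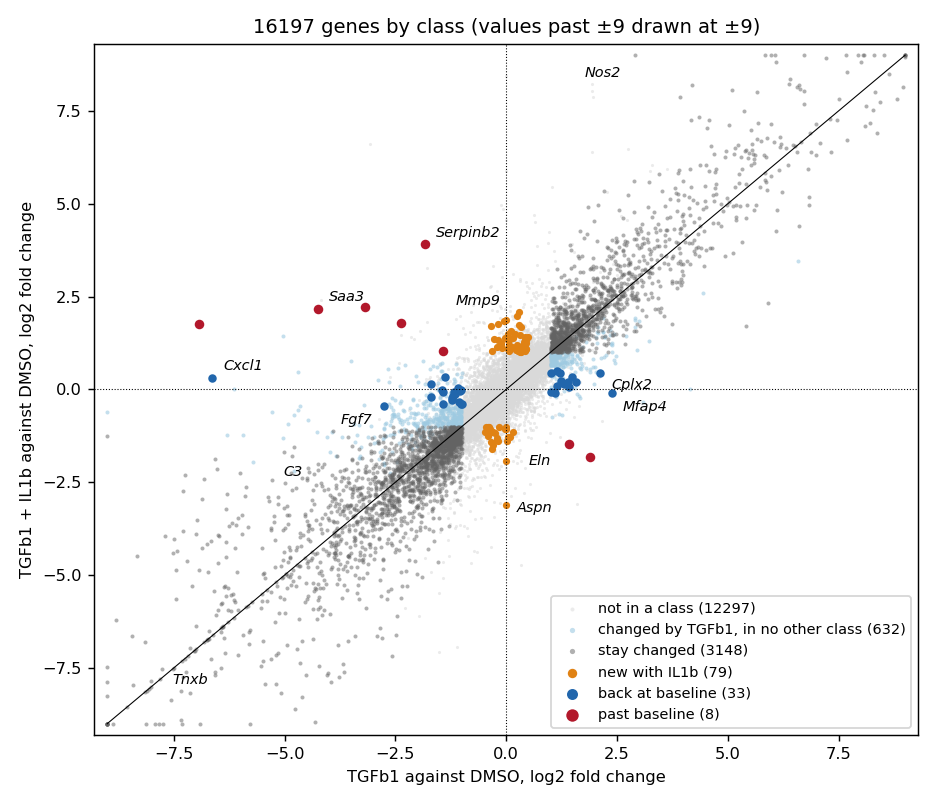
Each point is 1 of 16197 genes, with the log2 fold change of TGFb1 against DMSO on the horizontal axis and of TGFb1 + IL1b against DMSO on the vertical axis, both against the same DMSO libraries. Dark grey points along the diagonal are the 3148 genes that stayed changed, blue points near the horizontal line the 33 back at baseline, red points across that line the 8 past baseline and orange points near the vertical line the 79 new genes.

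The genes back at baseline that TGFb1 had lowered numbered 19 (0.117% of genes tested), and sensors and mediators of inflammation were found among them. Cxcl1, the main neutrophil-attracting chemokine of mouse fibroblasts, was at 93.0, 82.8 and 80.8 CPM with DMSO, 1.31, 0.678 and 0.515 CPM with TGFb1 and 128, 94.9 and 97.3 CPM with TGFb1 + IL1b. All TGFb1 libraries lay far below, and the lowest TGFb1 + IL1b values lay just above the highest DMSO value. The log2 fold change from DMSO was 0.32 ± 0.12 (adjusted p = 0.0296), a call that was lost without DMSO replicate 2, DMSO replicate 3 or TGFb1 + IL1b replicate 1, and the change from TGFb1 was 6.95 ± 0.33. Ptx3, a soluble pattern recognition protein of the pentraxin family, went from 60.1, 61.5 and 71.1 CPM to 20.3, 19.6 and 19.6 CPM with TGFb1 and stood at 78.3, 66.3 and 67.0 CPM with both cytokines. The DMSO and TGFb1 + IL1b libraries of Ptx3 overlapped (log2 fold change 0.14 ± 0.082, adjusted p = 0.14). Nfkbia, the inhibitor that holds NF-kB in the cytoplasm and is itself an NF-kB target, was at 92.2, 94.2 and 86.7 CPM with DMSO, 41.5, 40.2 and 35.9 CPM with TGFb1 and 79.0, 74.6 and 78.5 CPM with both. It stayed slightly below DMSO (-0.23 ± 0.067, adjusted p = 0.00177), with no overlap between the groups.

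These 3 genes were the ones of the 13 matched promoters in that direction that held the kappaB consensus, the 10-base element bound by NF-kB. The search covered both strands of 250 bases before to 50 bases after the start in RefSeq's promoter table (GRCm38.p6), where 558 of 10822 promoters of tested genes hold the consensus (5.16%). Among genes that stayed changed it was in 49 of 830 promoters of raised genes (5.90%) and 62 of 1207 of lowered genes (5.14%). Among genes back at baseline that TGFb1 had raised it was in 2 of 9, among new genes in 3 of 42 raised and 2 of 19 lowered, and among genes past baseline in 0 of 7. A match describes these letters and is neither a site nor a cause, and the small number of promoters per class limits the comparison. Of each promoter, 150 bases before the start and 20 bases from the start on are shown 5′ to 3′, with bases that match the consensus in capitals. The first matching base lies 71 bases before the start in Cxcl1, 29 in Nfkbia (read on the opposite strand) and 1 in Ptx3, and in Cxcl1 and Ptx3 the capitals join 2 overlapping matches.
Cxcl1 (chr5:90891095-90891264, plus strand): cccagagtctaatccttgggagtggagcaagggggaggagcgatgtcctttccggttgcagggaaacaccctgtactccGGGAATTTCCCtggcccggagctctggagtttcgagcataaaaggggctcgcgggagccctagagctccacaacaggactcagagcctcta
Nfkbia (chr12:55492628-55492797, minus strand): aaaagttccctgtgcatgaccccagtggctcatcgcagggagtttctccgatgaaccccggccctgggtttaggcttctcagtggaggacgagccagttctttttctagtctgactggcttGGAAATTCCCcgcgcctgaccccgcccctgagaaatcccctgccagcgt
Ptx3 (chr3:66219737-66219906, plus strand): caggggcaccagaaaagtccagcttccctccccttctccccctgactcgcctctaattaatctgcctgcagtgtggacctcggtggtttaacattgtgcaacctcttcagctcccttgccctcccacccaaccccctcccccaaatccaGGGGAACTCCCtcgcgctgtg

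Other lowered genes that came back included receptor-side and secreted factors. Fgf7, a growth factor that fibroblasts make for epithelial cells, was at 342, 322 and 320.1 CPM with DMSO, 56.0, 46.3 and 42.8 CPM with TGFb1 and 247, 236 and 239.6 CPM with both. Its TGFb1 + IL1b libraries recovered most of the way and still lay below all DMSO libraries (-0.45 ± 0.065, adjusted p = 5.92e-07). Il1rap, the shared chain of the IL1 and IL33 receptors, was at 46.8, 50.9 and 55.2 CPM, 19.0, 20.95 and 16.1 CPM and 40.9, 37.8 and 38.3 CPM in the same order, and also stayed slightly lower (-0.39 ± 0.074, adjusted p = 9.12e-06). Rspo3, a secreted enhancer of Wnt signalling, was at 33.8, 36.9 and 35.0 CPM, 18.3, 14.1 and 14.3 CPM and 34.4, 31.5 and 35.3 CPM, with overlapping DMSO and TGFb1 + IL1b libraries (-0.06 ± 0.082, adjusted p = 0.523). Cebpd, a transcription factor of the acute phase response, had a log2 fold change of -1.69 with TGFb1 and -0.20 with both (adjusted p = 0.0796). The endotoxin receptor gene Tlr4 had -1.02 and -0.38 (adjusted p = 2.35e-07), and the cytokine signalling inhibitor Socs2 had -1.42 and -0.08 (adjusted p = 0.525). The spermine oxidase Smox stood at -0.00 and the sulfide-oxidising enzyme Sqor at 0.04, both without passing the test.

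The genes back at baseline that TGFb1 had raised numbered 14 (0.0864%) and held matrix, cytoskeletal and developmental genes. Mfap4, a microfibril-associated matrix protein, was at 2.72, 2.48 and 3.41 CPM with DMSO, 17.3, 13.2 and 14.2 CPM with TGFb1 and 2.87, 2.34 and 2.84 CPM with both. Its DMSO and TGFb1 + IL1b libraries overlapped (log2 fold change -0.09 ± 0.18, adjusted p = 0.682). Tgfb3, a TGFb ligand, went from 76.5, 73.9 and 78.0 CPM to 158, 147 and 158 CPM with TGFb1 and stood at 71.6, 74.9 and 71.7 CPM with both (-0.07 ± 0.049, adjusted p = 0.235). The other ligands did not return: Tgfb1 was raised by 1.57 with TGFb1 and 1.56 with both on the log2 scale, and Tgfb2 by 1.18 and 1.01. Cplx2, known as a regulator of vesicle fusion, went from 72.8, 72.2 and 70.9 CPM to 318, 303 and 321 CPM and back to 98.7, 98.2 and 98.6 CPM, which was still above every DMSO library (0.45 ± 0.050, adjusted p = 2.26e-11). Dmd, which encodes dystrophin, Hoxa4, a homeobox factor, and Mcam, an adhesion molecule of mural and endothelial cells, had log2 fold changes with TGFb1 of 1.48, 1.39 and 1.297. With both cytokines these were 0.32, 0.19 and 0.14.

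Near baseline did not mean equal to it for about as many of the 33 genes as not. Against DMSO, 16 of the 33 passed the test, 6 of the 14 raised by TGFb1 (all higher) and 10 of the 19 lowered by it (2 higher and 8 lower). With solvent adjustment 14 of the 33 passed, with a median log2 fold change of 0.12 for the raised genes and -0.21 for the lowered ones. Part of the 33 left the class when solvent adjustment or TGFb1 + DMSO entered the rule, as given in the last section. The limit of the interval nearest to the 1.5-fold margin was, on the log2 scale, 0.583 for Vav2, 0.582 for Adamts12 and 0.579 for Fgf7 among members, and 0.586 for Mmp10, 0.587 for Tmem176a and 0.590 for Sash1 just outside. The TGFb1 + TNF against TGFb1 + DMSO comparison, which shares no library with those that chose the members, gave a reading of the same genes with another cytokine. The TGFb1 + TNF label names no solvent, so its groups may also differ in DMSO, here and wherever it is used below. This comparison called 9233 genes (57%), 4505 higher (27.8%) and 4728 lower (29.2%). All 14 genes that TGFb1 had raised fell with TNF as well, and 13 of the 19 it had lowered rose, while 3 fell. Ptx3 and Fgf7 did not pass there, at log2 fold changes of -0.07 (adjusted p = 0.553) and 0.17 (adjusted p = 0.0594).

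In all, 8 genes went past baseline, and acute phase genes stood among the 6 that TGFb1 had lowered (0.037% of genes tested). Saa3, an inducible serum amyloid A gene, was at 3.91, 2.95 and 2.59 CPM with DMSO, 0.346, 0.0714 and 0.0515 CPM with TGFb1 and 16.5, 13.2 and 13.2 CPM with both, with no overlap between any pair of groups (log2 fold change from DMSO 2.17 ± 0.23, adjusted p = 2.17e-11). The solvent-adjusted value was 1.27 and did not pass (adjusted p = 0.263). Serpinb2, an inhibitor of plasminogen activators, went from 0.544, 0.806 and 0.405 CPM to 10.6, 7.85 and 8.63 CPM (3.91 ± 0.28, adjusted p = 3.79e-20), and passed with solvent adjustment (3.87, adjusted p = 1.29e-05). Lcn2, the siderophore-binding lipocalin, was at 0.272, 0.638 and 0.851 CPM with DMSO, at 0 counts in every TGFb1 library and at 1.80, 2.30 and 1.83 CPM with both (1.76 ± 0.51, adjusted p = 0.00241). The other members that rose past DMSO were the glycerol channel Aqp9, the apoptosis activator Hrk and the metal transporter Slc11a1, all with means under 3 CPM in both groups. Of these 6 genes, 1 (Serpinb2) passed with solvent adjustment, where Aqp9 was at 2.34 (adjusted p = 0.175), Hrk at 2.56 (adjusted p = 0.0996) and Slc11a1 at 0.14 (adjusted p = 0.899). Lcn2 did not pass with solvent adjustment either, and its adjusted value is poorly determined, since it was at 0 counts with TGFb1. The 2 genes in the opposite direction (0.0123%) were Eln and the peptide receptor gene Rxfp3, the latter under 2 CPM in every library. Eln, which encodes elastin (chr5:134702593-134747323, minus strand), was at 14.4, 13.8 and 15.2 CPM with DMSO, 40.4, 35.8 and 39.1 CPM with TGFb1 and 4.97, 6.16 and 4.64 CPM with both. Every TGFb1 + IL1b library lay below every DMSO library, which lay below every TGFb1 library (log2 fold change from DMSO -1.46 ± 0.13, adjusted p = 1.31e-13; solvent-adjusted -1.68, adjusted p = 8.23e-12). With TNF, 5 of the 6 and both of the 2 moved in the same direction against TGFb1 + DMSO.

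Genes of the IL1 pathway itself moved in both directions. Il1r1, the signalling receptor, was at 212, 205 and 207 CPM with DMSO, 54.5, 45.2 and 45.5 CPM with TGFb1 and 52.5, 46.2 and 48.3 CPM with both, so that the cytokine-treated libraries overlapped each other and lay well below DMSO (log2 fold change -2.09 ± 0.059, adjusted p = 7.63e-34). Il1rn, the receptor antagonist, was at 270.5, 243 and 263 CPM with DMSO, 206, 164 and 162 CPM with TGFb1 and 61.9, 54.3 and 56.0 CPM with both, with the larger step when IL1b was added (-2.17 ± 0.10 from DMSO, adjusted p = 8.15e-12; -1.63 ± 0.10 from TGFb1). Il1a, the other IL1 agonist, was at 0 counts in all DMSO and TGFb1 libraries and at 2.06, 1.51 and 1.44 CPM with both, at least 46.7-fold higher than DMSO when 3 counts are set as the limit for the 3 DMSO libraries together. Il1b was at 0 counts in these groups. Of 17 tested genes for IL1 pathway receptors, adaptors and antagonists, 5 rose and 7 fell against DMSO, where 33.9% of all genes tested rose and 34% fell. The median of the list was -0.00 against -0.01 over all genes. Among adaptors and kinases, Irak2 rose by 1.11 (adjusted p = 3.21e-20) and Tab2 by 0.65 (adjusted p = 7.99e-20) on the log2 scale. Irak3, an inhibitory member of the kinase family, was at -1.69 (adjusted p = 8.94e-25) and the adaptor Myd88 at -0.62 (adjusted p = 2.80e-11).

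NF-kB subunits and feedback genes moved up together when IL1b was added. All 20 genes of the list rose against TGFb1, where 17.2% of genes tested rose, with a median log2 fold change of 0.63 against 0.00 over all genes. Against DMSO, 13 rose, 3 fell and 4 did not pass, with a median of 0.51, and with TGFb1 alone 5 rose and 10 fell. Relb, a subunit of the alternative NF-kB pathway, was at 17.5, 18.5 and 16.7 CPM with DMSO, 16.6, 21.7 and 18.6 CPM with TGFb1 and 54.3, 49.4 and 51.8 CPM with both (1.56 ± 0.079, adjusted p = 9.28e-24). Tnfaip3, the A20 feedback inhibitor of NF-kB, rose from 18.9, 18.7 and 18.1 CPM to 67.0, 67.1 and 72.2 CPM (1.89 ± 0.074, adjusted p = 2.07e-28). The precursor genes Nfkb1 and Nfkb2 rose by 0.73 and 0.65, while Rela, the main transactivating subunit, was at 0.03 (adjusted p = 0.637).

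Chemokines split into those that exceeded baseline, those that returned and those that remained low. Against DMSO, 4 of 8 tested CXC chemokines rose and 4 fell (median -0.15, against -1.43 with TGFb1 alone). With solvent adjustment 3 rose and 3 fell and the median turned to 0.52. Of 8 tested CC chemokines 5 rose and 2 fell (median 0.68, 0.44 with solvent adjustment, against -0.70 with TGFb1 alone). Ccl2, the monocyte chemoattractant, was at 196, 189.9 and 196 CPM with DMSO, 43.7, 36.7 and 39.0 CPM with TGFb1 and 335, 282 and 292 CPM with both, above every DMSO library (0.64 ± 0.081, adjusted p = 4.68e-07). The related chemokine Ccl7 rose by 0.72 ± 0.11 (adjusted p = 2.25e-05). Cxcl10, a T cell chemoattractant, was already raised by TGFb1 and rose further, from 2.93, 4.06 and 3.32 CPM to 37.1, 33.0 and 24.0 CPM and 122, 99.5 and 89.5 CPM (4.91 ± 0.28 from DMSO, adjusted p = 3.29e-11). Ccl5, which attracts T cells and monocytes, went from 1.22, 1.41 and 2.72 CPM to 17.7, 16.8 and 15.1 CPM (3.24 ± 0.25, adjusted p = 1.55e-12). Cxcl5, a neutrophil chemokine, was at 12.9, 12.5 and 10.4 CPM with DMSO, at 0 counts in every TGFb1 library and at 9.72, 7.02 and 6.69 CPM with both, which left it lower than DMSO (-0.61 ± 0.20, adjusted p = 0.00642). With solvent adjustment the Cxcl5 value turned to 1.20 and did not pass (adjusted p = 0.499). Cxcl12, a chemokine that retains leukocytes and stem cells, remained low and went lower, from 1924, 2031 and 2065 CPM to 748, 778 and 794 CPM and 442, 465 and 480.1 CPM (-2.12 ± 0.048, adjusted p = 4.29e-31). The membrane-bound chemokine Cx3cl1 also fell in both steps, by 1.14 with TGFb1 and by 1.66 in all on the log2 scale.

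Cytokines of the IL6 family and colony-stimulating factors moved in both directions. Of 16 tested genes of that list, which includes alarmins, 8 rose, 5 fell and 3 did not pass against DMSO (median 0.54, 0.95 with solvent adjustment, against -0.31 with TGFb1 alone). Il6, the acute phase cytokine, was at 11.0, 9.84 and 9.08 CPM with DMSO, 29.1, 29.2 and 24.6 CPM with TGFb1 and 105, 87.8 and 94.7 CPM with both, in 3 separate ranges (3.26 ± 0.095, adjusted p = 1.02e-32). Lif went from 10.1, 11.7 and 13.6 CPM to 64.5, 68.8 and 66.3 CPM and 195, 177 and 185 CPM (3.98 ± 0.071, adjusted p = 7.51e-44), and Il11, a profibrotic member of the family, from 0.102, 0.0672 and 0.324 CPM to 7.61, 5.92 and 7.01 CPM and 16.7, 11.2 and 13.7 CPM (6.43 ± 0.47, adjusted p = 7.66e-27). Csf2, the granulocyte-macrophage factor, was at 0, 0 and 0.122 CPM with DMSO, at 0 counts with TGFb1 and at 4.86, 3.42 and 3.59 CPM with both, at least 96.9-fold higher than with TGFb1. Csf3 was too low to be tested, at 0.184, 0.180 and 0.216 CPM with both. Csf1, the macrophage growth factor, recovered in part, from 692, 733 and 692 CPM to 252, 233 and 245 CPM and 382, 358 and 356 CPM (-0.95 ± 0.042, adjusted p = 5.64e-26). Il33, an alarmin of stromal cells, stayed low at 1.40, 1.84 and 1.22 CPM against 12.8, 13.2 and 15.4 CPM (-3.21 ± 0.24, adjusted p = 8.13e-16).

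**Figure D2:**
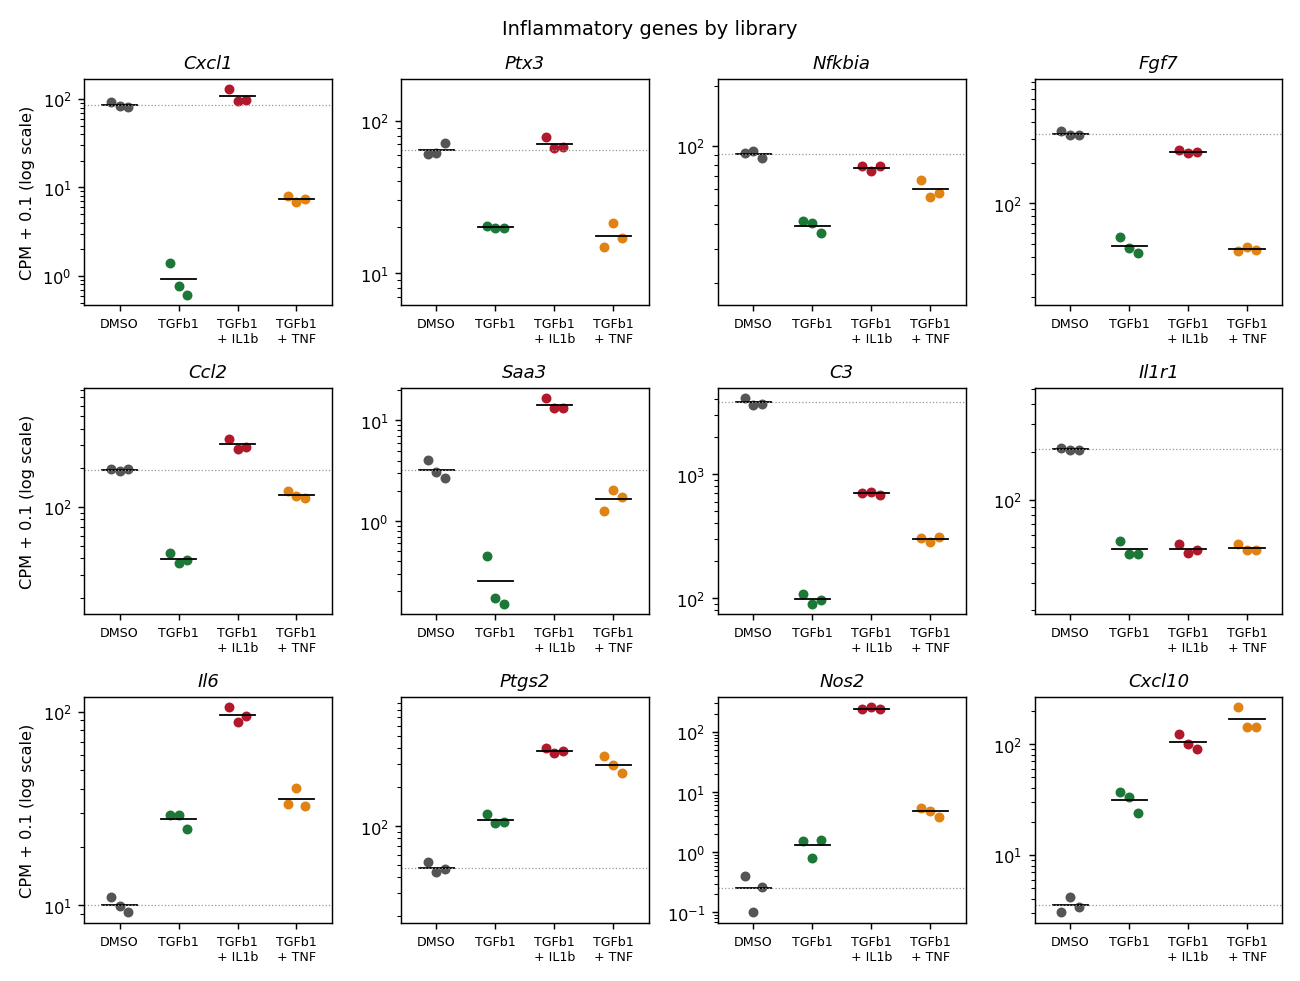
Levels of 12 inflammatory genes in each library, as CPM plus 0.1 on a log scale, for DMSO, TGFb1, TGFb1 + IL1b and TGFb1 + TNF, with dots for libraries, bars for group means and a dotted line at the DMSO mean. Cxcl1, Ptx3, Nfkbia and Fgf7 come back close to the dotted line with IL1b, Ccl2 and Saa3 exceed it, C3 and Il1r1 stay below it, and Il6, Ptgs2, Nos2 and Cxcl10 stand above it in both TGFb1 and TGFb1 + IL1b.

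Acute phase and complement genes recovered in part. With TGFb1 alone 0 of 19 tested genes rose and 18 fell, with a median of -3.93 against -0.03 over all genes. With both cytokines 2 rose and 15 fell against DMSO and the median was -2.44, while 14 of the 19 rose and 2 fell against TGFb1. C3, the central complement component, was at 4073, 3619 and 3670.3 CPM with DMSO, 107, 90.2 and 95.5 CPM with TGFb1 and 700.3, 711 and 683 CPM with both. IL1b thus raised C3 by 2.84 ± 0.051 on the log2 scale, and it remained 5.43-fold lower than DMSO (-2.44 ± 0.048, adjusted p = 1.04e-30). Hp, which encodes haptoglobin, went from 61.4, 46.0 and 46.2 CPM to 0.423, 0.4997 and 0.361 CPM and 7.77, 6.41 and 5.86 CPM (-2.94 ± 0.16, adjusted p = 2.12e-15), and Cp, which encodes ceruloplasmin, from 282, 317 and 319 CPM to 48.6, 46.5 and 42.0 CPM and 166, 153 and 162 CPM (-0.93 ± 0.049, adjusted p = 6.81e-23). C4b, another complement component, was an exception and fell further, to 14.0, 13.2 and 11.4 CPM from 367, 349.6 and 347 CPM with DMSO and 23.9, 23.7 and 21.5 CPM with TGFb1 (-4.79 ± 0.068, adjusted p = 1.48e-47). Clu, the extracellular chaperone clusterin, did not move from its TGFb1 level past the test and was at 1.47, 1.76 and 1.65 CPM against 213, 198 and 203 CPM (-6.97 ± 0.17, adjusted p = 1.02e-33).

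Nos2, the inducible nitric oxide synthase, went from a few counts to a high level when IL1b was added. It was at 0.306, 0 and 0.162 CPM with DMSO, 1.46, 0.714 and 1.49 CPM with TGFb1 and 237, 254 and 236 CPM with both (chr11:78920787-78960254), with log2 fold changes of 10.57 ± 0.53 from DMSO (adjusted p = 1.37e-26) and 7.67 ± 0.22 from TGFb1. Slc7a2, a transporter of arginine, the substrate of that enzyme, was among the new genes, at 46.9, 54.4 and 54.7 CPM with DMSO, 40.3, 42.2 and 40.2 CPM with TGFb1 and 172, 161 and 173 CPM with both (1.70 ± 0.061, adjusted p = 1.51e-29). Ptgs2, the inducible cyclooxygenase, went from 52.1, 43.5 and 45.9 CPM to 123, 105 and 107 CPM and 406, 368 and 379 CPM (3.02 ± 0.092, adjusted p = 1.74e-15). Its constitutive counterpart Ptgs1 rose by 1.44 and the downstream synthase Ptges fell by 0.77 on the log2 scale. Of 13 prostaglandin genes 7 rose and 5 fell (median 0.14, -0.09 with solvent adjustment), and of 17 nitric oxide and oxidant genes 9 rose and 5 fell (median 1.14). Over all genes tested 33.9% rose and 34% fell against DMSO.

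Interferon-stimulated genes rose, and no treatment label names an interferon. Against DMSO 27 of 32 rose, 1 fell and 4 did not pass (median 1.21, 1.88 with solvent adjustment), with TGFb1 alone 13 rose and 4 fell (median 0.31), and adding IL1b raised 28 and lowered 0 at the same threshold, the remaining 4 not passing. Isg15, a ubiquitin-like antiviral protein, was at 2.21, 6.55 and 4.62 CPM with DMSO, 18.9, 19.0 and 13.6 CPM with TGFb1 and 51.4, 40.9 and 41.1 CPM with both (3.32 ± 0.29, adjusted p = 2.35e-08). Rsad2, an antiviral enzyme, went from 0.306, 0.504 and 1.78 CPM to 12.2, 13.7 and 8.45 CPM and 32.6, 33.7 and 29.2 CPM (5.28 ± 0.61, adjusted p = 4.85e-08). The DMSO libraries of both genes differed from each other several-fold, unlike most genes above, and the list's median was 1.03 without DMSO replicate 1 and 1.38 without DMSO replicate 2. Antigen presentation genes recovered in part: 11 of 13 rose and 0 fell against TGFb1, while against DMSO 2 rose and 6 fell (median -0.45, 0.11 with solvent adjustment). B2m, the light chain of class I molecules, was at 1276, 1324 and 1266 CPM with DMSO, 748, 684 and 659.9 CPM with TGFb1 and 833, 864 and 895 CPM with both (-0.58 ± 0.040, adjusted p = 3.14e-18).

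The fibrotic side of the TGFb1 response stayed largely in place. Of 32 fibrillar collagen and matrix genes, 24 rose and 8 fell against DMSO, with a median of 0.89 against 1.11 with TGFb1 alone. When IL1b was added 7 rose and 17 fell, where 17.2% of genes tested rose and 17.4% fell. Col1a1, a chain of type I collagen, was at 12399, 12665 and 12618 CPM with DMSO, 27124, 27279.8 and 28759.7 CPM with TGFb1 and 25326, 25901 and 24752 CPM with both, all far above DMSO and slightly below TGFb1 (1.01 ± 0.037 from DMSO, adjusted p = 2.63e-28; -0.13 ± 0.037 from TGFb1). Col3a1 stood at 0.90 ± 0.037 against DMSO (adjusted p = 2.20e-27) and did not move past the test when IL1b was added (0.05 ± 0.037, adjusted p = 0.338). Postn, a matricellular protein of wounds, went from 2505, 2423 and 2398 CPM to 6178, 5758 and 5543 CPM and 7028, 7065 and 7148 CPM, and Col5a3, a fibril-regulating collagen chain, from 51.8, 51.7 and 55.6 CPM to 494, 527 and 531 CPM and 1248, 1355 and 1343 CPM, so that both exceeded TGFb1 alone. Their log2 fold changes from DMSO were 1.54 ± 0.035 (adjusted p = 1.79e-38) and 4.63 ± 0.045 (adjusted p = 2.53e-53). Cthrc1, a marker of collagen-producing fibroblasts in lung scarring, was at 4.08, 6.95 and 6.24 CPM with DMSO, 46.2, 42.9 and 45.5 CPM with TGFb1 and 31.2, 29.4 and 30.6 CPM with both, reduced against TGFb1 and raised against DMSO (2.40 ± 0.11, adjusted p = 2.05e-25).

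Matrix genes that TGFb1 had lowered also stayed low. Tnxb, a tenascin of resting connective tissue, was at 665, 617 and 605 CPM with DMSO, 3.30, 3.71 and 1.18 CPM with TGFb1 and 4.20, 3.59959 and 2.41 CPM with both, 185-fold lower than DMSO (adjusted p = 8.76e-16). Dcn, the proteoglycan decorin, which binds TGFb, recovered in part from 236, 217 and 221 CPM with TGFb1 to 489, 475 and 484 CPM, against 1977, 2060.2 and 2000.91 CPM with DMSO (-2.06 ± 0.040, adjusted p = 2.66e-41). Lum, the related proteoglycan lumican, was at 0.258, 0.180 and 0.0719 CPM against 10.1, 9.67 and 7.99 CPM (-5.73 ± 0.44, adjusted p = 1.59e-23). Of 24 collagen processing and crosslinking genes 19 rose and 3 fell against DMSO (median 1.03, against 0.98 with TGFb1 alone), among them the crosslinking enzymes Lox (1.19 ± 0.053, adjusted p = 8.96e-17) and Loxl2 (2.33 ± 0.037, adjusted p = 8.41e-45).

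TGFb and SMAD target genes largely remained raised. Against DMSO 18 of 24 rose and 4 fell (median 1.05, against 1.52 with TGFb1 alone). Adding IL1b raised 4 and lowered 12, where 17.2% of genes tested rose and 17.4% fell. Ccn2, the connective tissue growth factor, was at 84.5, 101.2 and 97.0 CPM with DMSO, 1451, 1595 and 1566 CPM with TGFb1 and 1432, 1500.1 and 1464 CPM with both, with overlapping cytokine-treated libraries (3.96 ± 0.063 from DMSO, adjusted p = 3.97e-24). Pmepa1, a feedback inhibitor of TGFb signalling, was at 111, 115 and 109.9 CPM, 1252, 1173 and 1181 CPM and 623, 616 and 609.8 CPM in the same order, lower with IL1b than without it (-0.96 ± 0.037, adjusted p = 5.16e-27). Inhba, which encodes the activin A subunit, moved the other way with IL1b, from 53.1, 62.2 and 62.1 CPM to 357, 379 and 369 CPM and 818, 781 and 795 CPM (3.76 ± 0.054, adjusted p = 8.52e-37). Targets of the opposing bone morphogenetic protein branch stayed low, with 12 of 13 ID family and BMP target genes fallen and 1 risen (median -2.32, against -1.95 with TGFb1 alone), Id1 among them at 9.20, 8.68 and 7.12 CPM against 93.1, 80.1 and 71.1 CPM with DMSO.

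Contractile genes were lowered when IL1b was added. Of 24 contractile and myofibroblast genes, 19 fell and 1 rose when IL1b was added, where 17.4% of genes tested fell. Against DMSO 12 rose and 10 fell, with a median of 0.12 against 0.48 with TGFb1 alone, and of -0.12 with solvent adjustment. Acta2, the smooth muscle actin that defines myofibroblasts, was at 1155, 1084 and 1102 CPM with DMSO, 2384, 2355 and 2438 CPM with TGFb1 and 1751, 1821 and 1818 CPM with both, in 3 separate ranges (0.69 ± 0.049 from DMSO, adjusted p = 1.63e-14; solvent-adjusted 0.29, adjusted p = 0.000439). Tagln, an actin-binding protein, was at 74.0, 70.4 and 64.0 CPM, 152, 154 and 163 CPM and 128, 137 and 123 CPM (0.90 ± 0.069, adjusted p = 2.75e-13). Mylk, the myosin light chain kinase, was already lowered by TGFb1 and fell further, from 135, 134 and 134 CPM to 15.6, 14.3 and 18.1 CPM and 8.87, 5.62 and 6.76 CPM (-4.25 ± 0.15, adjusted p = 9.99e-16). Myl9, a myosin regulatory light chain, did not pass with TGFb1 alone (0.01, adjusted p = 0.922) and fell with both, to 161, 167 and 155 CPM from 338, 307 and 308 CPM with DMSO (-0.98 ± 0.061, adjusted p = 8.54e-15).

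**Figure D3:**
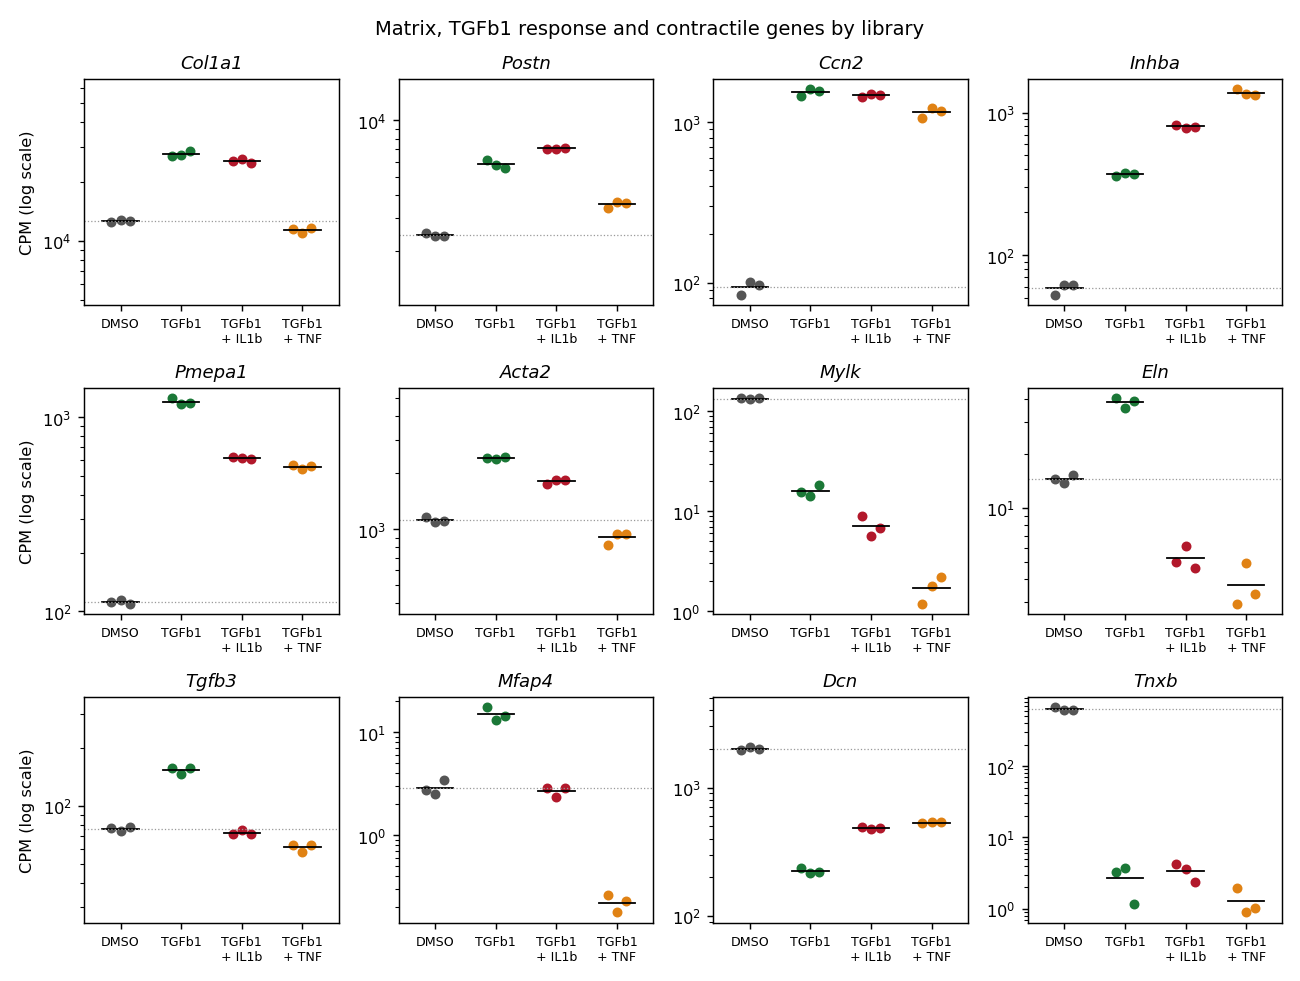
Levels of 12 matrix, TGFb1 response and contractile genes in each library, as CPM on a log scale, for DMSO, TGFb1, TGFb1 + IL1b and TGFb1 + TNF, with dots for libraries, bars for group means and a dotted line at the DMSO mean. Col1a1, Postn and Ccn2 keep their TGFb1 rise with IL1b, Inhba exceeds it, Pmepa1 and Acta2 lie between TGFb1 and DMSO, Tgfb3 and Mfap4 meet the dotted line, and Eln, Mylk, Dcn and Tnxb lie below it.

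Proteases and their inhibitors did not move as 1 group. Of 19 metalloproteinase and inhibitor genes, 6 rose and 10 fell against DMSO (median -0.87, -0.39 with solvent adjustment), where 33.9% of genes tested rose and 34% fell. Mmp3, the stromelysin, was at 687, 579 and 582 CPM with DMSO, 77.2, 69.1 and 61.7 CPM with TGFb1 and 45.9, 38.1 and 34.8 CPM with both, lower at each step (-3.96 ± 0.12, adjusted p = 9.16e-14). Mmp13, a collagenase, was raised by TGFb1 and partly reduced by IL1b, at 5.85, 6.38 and 6.49 CPM, 51.1, 45.6 and 40.4 CPM and 21.3, 16.3 and 18.5 CPM (1.59 ± 0.17, adjusted p = 4.44e-07). Timp1, an inhibitor of metalloproteinases, rose in both steps, from 80.7, 74.4 and 72.4 CPM to 527, 477 and 478 CPM and 1121, 1150.1 and 1089.5 CPM (3.88 ± 0.045, adjusted p = 3.80e-50). Mmp9, a gelatinase, was a new gene, at 6.67, 7.15 and 7.22 CPM with DMSO, 8.57, 7.10 and 9.48 CPM with TGFb1 and 31.2, 25.1 and 27.1 CPM with both (1.99 ± 0.093, adjusted p = 6.96e-25). Plau, the urokinase plasminogen activator, was new in the other direction, at 71.7, 80.1 and 77.4 CPM, 80.2, 73.6 and 70.6 CPM and 36.0, 35.2 and 38.3 CPM (-1.07 ± 0.064, adjusted p = 1.26e-20).

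Genes that TGFb1 left near baseline and IL1b raised included stress, metabolic and survival factors beside the inflammatory ones. Stard5, a cholesterol-binding transport protein, had the largest change of the 51, from 27.9, 24.6 and 28.7 CPM with DMSO and 28.96, 35.9 and 34.1 CPM with TGFb1 to 121, 109 and 116 CPM (2.09 ± 0.071, adjusted p = 4.70e-28). Sod2, the mitochondrial superoxide dismutase and a classical NF-kB target, was at 52.4, 48.9 and 48.2 CPM, 44.2, 41.9 and 45.4 CPM and 132, 120.0 and 121 CPM (1.32 ± 0.055, adjusted p = 4.47e-27). Igfbp5, which binds insulin-like growth factors, was at 61.1, 55.5 and 59.2 CPM, 54.6, 52.0 and 48.5 CPM and 231, 182 and 181 CPM (1.76 ± 0.11, adjusted p = 8.88e-10). The secreted stress factors Stc2, a stanniocalcin, and Gdf15, a distant TGFb relative, reached 38.2, 33.7 and 34.2 CPM from 10.2, 8.86 and 10.3 CPM and 39.2, 34.1 and 27.8 CPM from 8.98, 10.9 and 8.19 CPM, with log2 fold changes of 1.86 ± 0.11 (adjusted p = 4.54e-19) and 1.84 ± 0.16 (adjusted p = 1.31e-09). Among stress regulators, Atf4 went from 553, 515 and 492 CPM to 738, 725 and 734 CPM and 1407, 1419.8 and 1327 CPM (1.41 ± 0.041, adjusted p = 1.02e-33). Its partner in the stress response Ddit3 rose by 1.36, and the endoplasmic reticulum sensors Ern1 and Atf6 by 1.14 and 1.15. The death receptor Fas rose by 1.14 and the interferon-inducible GTPase Gbp2 by 1.34.

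Genes that were new and lower held matrix and fibroblast regulators. Aspn, the proteoglycan asporin, which binds collagen and TGFb (chr13:49544443-49567565), was at 27.6, 28.1 and 27.8 CPM with DMSO, 30.7, 27.7 and 24.0 CPM with TGFb1 and 4.27, 2.77 and 2.66 CPM with both, 8.62-fold lower than DMSO (-3.11 ± 0.18, adjusted p = 2.73e-14). Ccn5, a matricellular relative of Ccn2, was at 83.8, 79.6 and 76.8 CPM, 77.8, 77.6 and 84.5 CPM and 21.9, 22.3 and 19.4 CPM (-1.92 ± 0.078, adjusted p = 8.57e-26). Cygb, which encodes cytoglobin, was at 154, 164 and 158 CPM, 168, 161 and 159 CPM and 60.9, 66.4 and 69.8 CPM (-1.27 ± 0.052, adjusted p = 9.56e-28). The transcriptional repressor Hic1, a marker of quiescent mesenchymal progenitors, fell by 1.40, the actin-associated protein Synpo by 1.49, the glycosyltransferase Gxylt2 by 1.42 and the RNase P subunit Rpp25 by 1.61 on the log2 scale. In all 79 genes the solvent-adjusted contrast passed in the same direction. In the comparison of TGFb1 + TNF with TGFb1 + DMSO, 45 of the 51 raised genes rose and 3 fell, and 27 of the 28 lowered genes fell and 0 rose.

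**Figure D4:**
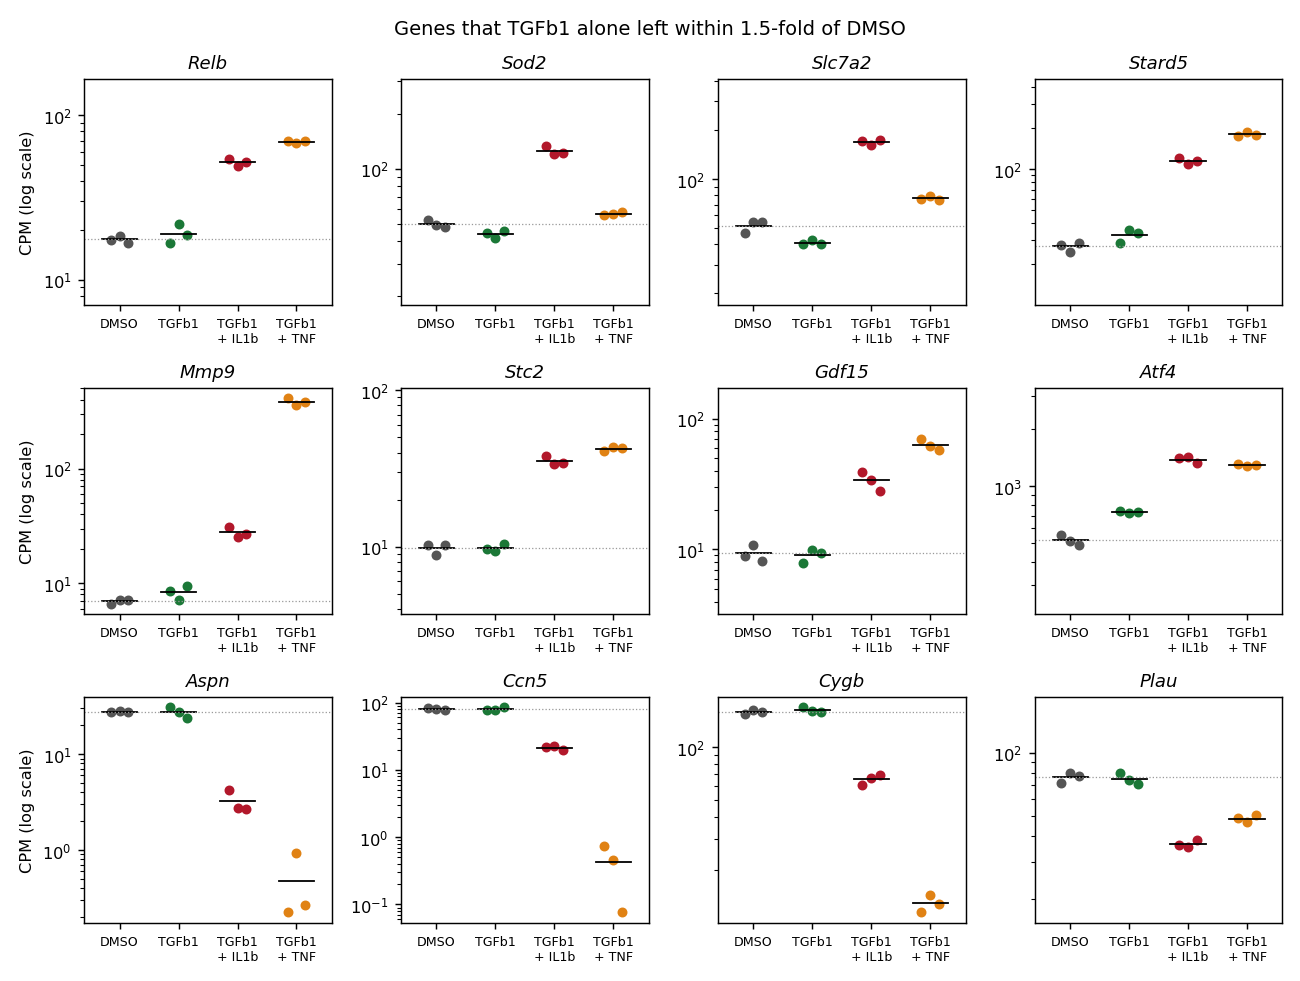
Levels of 12 genes that TGFb1 held within 1.5-fold of DMSO and IL1b moved at least 2-fold away, in each library as CPM on a log scale, with dots for libraries, bars for group means and a dotted line at the DMSO mean. The DMSO and TGFb1 dots lie close together, the TGFb1 + IL1b dots of the first 8 genes above them and those of the last 4 below, and the TGFb1 + TNF dots of Mmp9, Aspn, Ccn5 and Cygb lie further out than those with IL1b.

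The rule for new genes needs a narrow interval and so left out genes with few counts under TGFb1 or DMSO, such as Il1a and Csf2. Of genes that both differed from DMSO by 2-fold or more and moved in the same direction against TGFb1, 130 higher and 68 lower ones did not pass with TGFb1 alone and had a wider interval. A further 226 higher and 207 lower ones passed with TGFb1 alone at less than 2-fold, with an interval that reached beyond 1.5-fold.

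Among the 3148 genes that stayed changed, 1272 were raised and 1876 lowered by TGFb1, 7.85% and 11.6% of genes tested, with median log2 fold changes from DMSO of 2.02 and -2.23 with both cytokines. IL1b moved 396 of the raised genes further up and 183 back in part, and moved 382 of the lowered genes further down and 144 back in part. The other 693 and 1350 did not pass against TGFb1. In the TNF comparison with TGFb1 + DMSO, 313 of the 396 rose and 31 fell, 345 of the 382 fell and 8 rose, and 133 of the 183 fell and 18 rose. Of the 144 lowered genes that IL1b moved back in part, 67 rose with TNF, 44 fell and 33 did not pass. The solvent-adjusted contrast passed for 2583 of the 3148.

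Metabolic and stress groups were raised against DMSO and differed in how IL1b moved them. All 18 ATF4, serine and proline synthesis genes rose against DMSO and all 18 rose when IL1b was added, with medians of 2.03 with both cytokines and 1.21 with TGFb1 alone. Asns, the asparagine synthetase, went from 149, 153 and 166 CPM to 466, 479 and 485 CPM and 784, 769 and 767 CPM (2.31 ± 0.040, adjusted p = 2.94e-43), and the cystine transporter Slc7a11 from 13.9, 17.5 and 19.6 CPM to 32.8, 49.1 and 43.4 CPM and 151, 139 and 142 CPM (3.09 ± 0.13, adjusted p = 6.74e-13). Of 22 glycolysis and hypoxia genes 20 rose and 1 fell against DMSO, with medians of 2.0 with both and 2.08 with TGFb1 alone, and 8 rose, 2 fell and 12 did not pass when IL1b was added. The lactate exporter Slc16a3 reached 123, 131 and 133 CPM from 4.01, 3.42 and 4.38 CPM (5.04 ± 0.090, adjusted p = 2.82e-46). Of 30 cell cycle genes 28 rose and 0 fell against DMSO (median 0.89), while 16 fell and 0 rose when IL1b was added. Of 18 secretory pathway and unfolded protein genes 16 rose and 0 fell against DMSO (median 0.74), and 3 rose and 12 fell when IL1b was added.

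Growth factors diverged within the list of 28, of which 13 rose and 12 fell against DMSO (median 0.02, -0.06 with solvent adjustment). Among all genes tested 33.9% rose and 34% fell. Vegfa, the angiogenic factor, rose in both steps, from 193, 197 and 201 CPM to 985, 1008 and 979.9 CPM and 1736, 1770.2 and 1714 CPM (3.14 ± 0.039, adjusted p = 4.98e-49). Hbegf, an epidermal growth factor receptor ligand, went from 10.5, 11.8 and 13.1 CPM to 83.4, 90.3 and 97.5 CPM and 203, 192 and 189.7 CPM (4.05 ± 0.065, adjusted p = 7.34e-46). Pdgfra, the receptor that marks many fibroblasts, fell in both steps, from 1503, 1468 and 1483 CPM to 454, 415 and 404 CPM and 217, 207 and 208 CPM (-2.82 ± 0.042, adjusted p = 7.64e-46). Of 23 immediate early and AP-1 genes 7 rose and 16 fell (median -1.43), among them Zfp36, which destabilises cytokine messenger RNA, at 40.1, 37.1 and 34.5 CPM against 1603, 1372 and 1291 CPM (-5.25 ± 0.12, adjusted p = 3.53e-15). Of 21 adventitial and universal fibroblast genes 6 rose and 12 fell (median -0.90), and of 19 alveolar and lipid-handling fibroblast genes 4 rose and 12 fell (median -1.07, against -1.69 with TGFb1 alone).

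**Figure D5:**
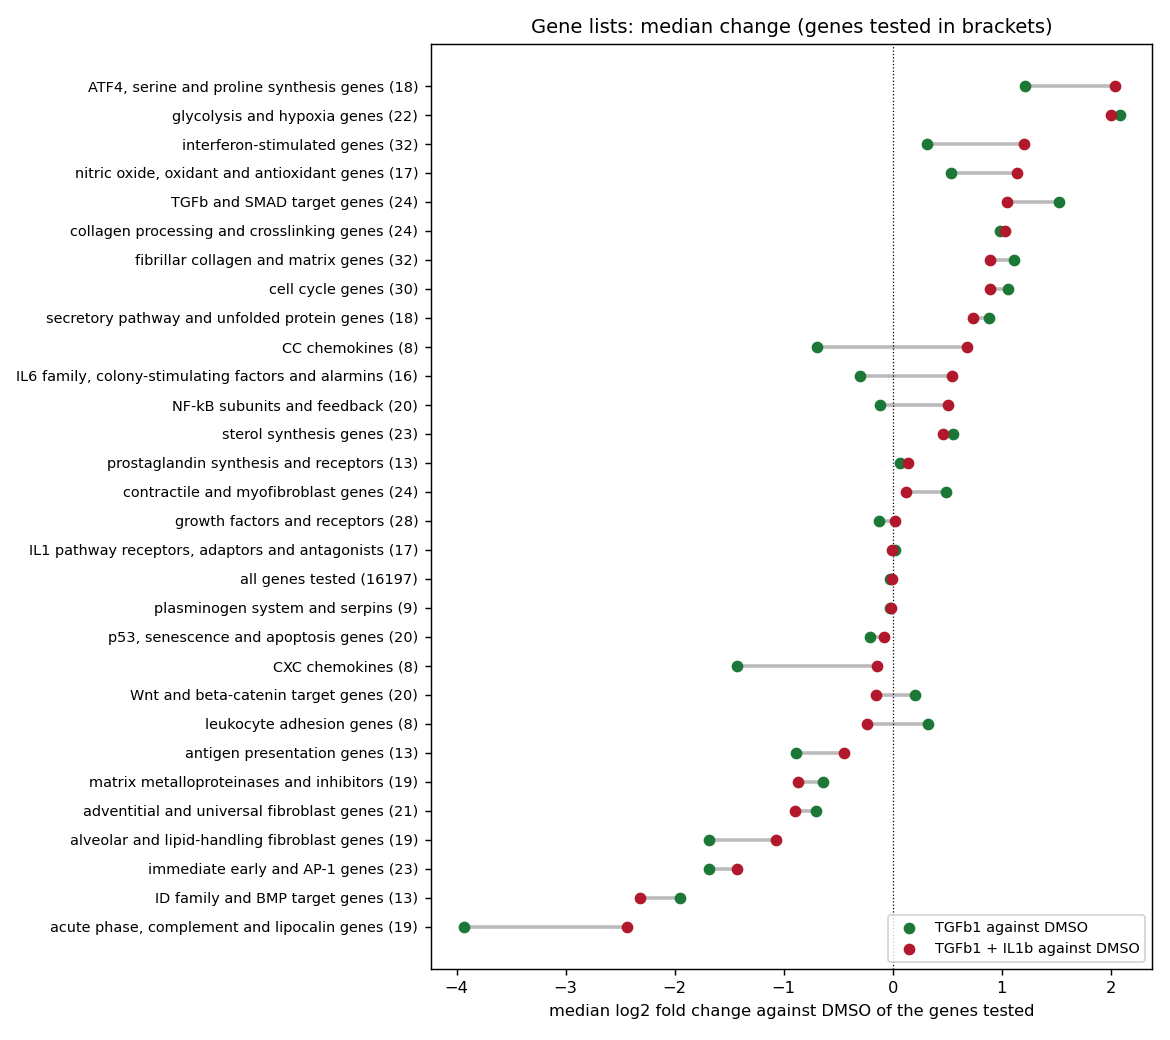
Median log2 fold change against DMSO of the tested genes of each list, green for TGFb1 and red for TGFb1 + IL1b, joined by a grey line, with the number of genes tested in brackets. The longest lines are those of the acute phase, CC chemokine and CXC chemokine lists, where the red dot lies to the right of the green one, while the collagen, glycolysis and cell cycle lists have dots close together. Both medians of a list rest on the same DMSO libraries.

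Among the largest differences from DMSO, some were set by TGFb1 and kept with IL1b, and others came mostly when IL1b was added. Besides Nos2, the 10 highest held Prss46, a serine protease gene at 0 counts in every DMSO library, 23.2, 18.5 and 18.4 CPM with TGFb1 and 24.4, 25.8 and 25.1 CPM with both, at least 701-fold higher than DMSO. They also held Abcb1a, a drug efflux pump, which went from 0.0340, 0.0672 and 0.0811 CPM to 14.2, 18.6 and 18.4 CPM and 81.6, 78.7 and 74.6 CPM (10.25 ± 0.67, adjusted p = 9.13e-44), and Acsbg1, an acyl-CoA synthetase, from 0.340, 0.134 and 0 CPM to 48.9, 57.7 and 54.3 CPM and 96.8, 100.4 and 95.03 CPM (9.15 ± 0.50, adjusted p = 2.93e-28). The rest were Rph3a, Usp17la, Prr9, Usp43 and the small proline-rich genes Sprr2e and Sprr2b, which belong to families of near-identical copies and are uncertain for that reason, as is Usp17la. Sprr2e was at 0 counts with DMSO, 0.346, 0.178 and 0.309 CPM with TGFb1 and 15.2, 12.6 and 12.1 CPM with both, at least 373-fold higher than DMSO. The 10 lowest were Inmt, Clca3a1, Fstl4, Gdpd2, Galnt15, Ces1d, Cdh26, Fam180a, Fmo2 and Abi3bp. Inmt, an indole methyltransferase, was at 43.3, 39.5 and 37.9 CPM with DMSO and at 0 counts in every TGFb1 + IL1b library, at least 1110.2-fold lower. Abi3bp, a matrix protein, went from 227, 212 and 197 CPM to 1.19, 0.214 and 0.927 CPM and 0.295, 0.216 and 0.288 CPM (-9.62 ± 0.46, adjusted p = 9.22e-23).

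A comparison with TGFb1 + TNF, another NF-kB-activating cytokine with no solvent named, showed where the IL1b state differed from that of a related stimulus. The groups differed in 7706 genes (47.6%), 4008 higher with IL1b (24.7%) and 3698 lower (22.8%), with 1475 at 2-fold or more (9.11%), 1116 higher (6.89%) and 359 lower (2.22%). Doses are not given, so the values are set side by side. Of the inflammatory genes, Cxcl1 was at 7.996, 6.76 and 7.34 CPM with TNF (3.86 ± 0.16 for IL1b against TNF, adjusted p = 3.96e-14), and Nos2 at 5.39, 4.80 and 3.80 CPM (5.70 ± 0.13, adjusted p = 4.96e-24). Cxcl5 had 1 library with counts among the 3 with TNF, at 0.0372 CPM (8.83, adjusted p = 1.58e-20). Of 19 acute phase genes 16 were higher with IL1b and 0 lower. Chemokines leaned the same way, with 6 of 8 CXC genes higher and 1 lower, and 4 of 8 CC genes higher and 1 lower. Of 13 prostaglandin genes 5 were higher and 3 lower, and of 17 IL1 pathway genes 6 were higher and 6 lower. Some inflammatory lists held more genes lower than higher with IL1b. Of 20 NF-kB genes 6 were higher and 11 lower, and of 16 IL6 family and colony-stimulating factor genes 4 were higher and 8 lower. Of 13 antigen presentation genes 2 were higher and 7 lower, and of 32 interferon-stimulated genes 1 was higher and 6 were lower. Over all genes tested 24.7% were higher and 22.8% lower, and the 6 lower interferon-stimulated genes of 32 did not exceed that share. Mmp9 was the gene furthest in the other direction, at 409, 361 and 379 CPM with TNF (-3.78 ± 0.068, adjusted p = 5.48e-39).

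The matrix programme also differed between the cytokines. Col1a1 was at 11454, 10867 and 11573 CPM with TNF, below every DMSO library and less than every library with IL1b (1.16 ± 0.037, adjusted p = 8.24e-30), and Col3a1 at 4208, 4211 and 4303 CPM (2.01 ± 0.037, adjusted p = 1.05e-40). Of 32 fibrillar collagen and matrix genes 27 were higher with IL1b than with TNF and 4 lower. Fndc1, a fibronectin domain protein, was at 63.3, 54.6 and 52.0 CPM with IL1b and 0.744, 0.676 and 0.494 CPM with TNF (6.46 ± 0.35, adjusted p = 2.77e-15). Of 24 contractile genes 16 were higher with IL1b and 3 lower, and Acta2 was at 818, 940.3 and 946 CPM with TNF (0.99 ± 0.049, adjusted p = 3.77e-18). Cell cycle genes lay the other way, with 2 of 30 higher and 20 lower with IL1b. The chromatin protein genes Hmga2 and Hmga1 and the cytoskeletal genes Add2 and Tnnt2, which encodes cardiac troponin T, had log2 fold changes of -2.84, -2.59, -2.95 and -2.83 for IL1b against TNF, all past the test.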

How the data were processed

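Total RNA was extracted with the Qiagen RNeasy kit and made into Illumina TruSeq Stranded Total RNA libraries, per the labels' protocols. The authors deposited raw read counts per gene as 1 table of 52636 genes in 21 libraries, and the 21 single-library files equal its columns. Builds GRCh38 and GRCm38 appear in the submitters' processing notes with no role; the aligner, counter and strand setting were not given in the sources used here, so reads of overlapping or antisense genes may not be told apart. Gene IDs were named from GENCODE M21 annotation (52489 matched; the 147 without a name held 0.00736% of counts). Gapdh has 45 counts in all libraries together, so reads that fit several copies of a gene seem to have been dropped. No 2 libraries agreed within sampling noise.

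Genes passing edgeR's filter were tested with edgeR 4.0.16 (R 4.3.3) by the quasi-likelihood test with TMM scaling and 1 coefficient per group over all 21 libraries, which share 1 estimate of spread, and Benjamini-Hochberg adjustment at 0.05. Errors after ± are standard errors of the log2 fold change. Bounds for groups at 0 counts set 3 counts over the 3 libraries. The script was tested on simulated data. Alternatives were DESeq2 1.42.0, limma 3.58.1 (voom), other scaling and filters, each replicate left out, other margins, and TGFb1 + DMSO as reference or solvent adjustment. Named genes with at least 5 CPM in a group were the 10 highest and 10 lowest, 6 per class and direction, up to 5 per list, 28 fixed by name (1 of them is not reported here) and 6 in each direction against TNF; other list or class members named were picked after their values were seen. Members, classes and the 36 lists were chosen with earlier results of these data known.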

Additional observations from a re-analysis of the deposited data

How the results depend on the processing

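Of the counts over all genes, those of each comparison stayed within 1.5 times under every alternative run, except that DMSO on TGFb1 called 649 genes without TGFb1 replicate 1. Leaving out single replicates gave 10394 to 10579 calls for TGFb1 + IL1b against DMSO, 9695 to 9878 for TGFb1 against DMSO, 4754 to 5067 for TGFb1 + IL1b against TGFb1, 6870 to 7193 against TGFb1 + TNF, 8705 to 8827 for TGFb1 + TNF against TGFb1 + DMSO, 649 to 897 for DMSO on TGFb1 and 8512 to 8756 with solvent adjustment. The same gave 25 to 41 genes back at baseline, 2979 to 3088 that stay changed, 6 to 9 past baseline and 69 to 91 new. The class sizes rest on their limits. With 1.5-fold as the size of a change, the genes back at baseline numbered 252, the genes that stay changed 4936, the genes past baseline 31 and the genes new with IL1b 559, and with a 2-fold margin 176 were back and 408 new, each set holding every member of the first. With TGFb1 + DMSO in place of TGFb1, 42 genes were back at baseline (24 shared with the 33), 2903 stayed changed (2720 shared), 12 were past baseline (7 shared) and 100 were new (62 shared). With solvent adjustment 23 were back (13 shared), 2556 stayed changed (2266 shared), 7 were past (3 shared) and 85 were new (51 shared). Solvent adjustment turned the sign of Cxcl5 in TGFb1 + IL1b against DMSO to 1.20, Hgf in TGFb1 + IL1b against DMSO to -0.0129, Ptgis to -0.0887, Slc31a2 to 0.0540, Tnfsf13b to -0.0432, Traf6 to 0.000735 and Vim to -0.0917, none past the threshold, and of the list medians for prostaglandin genes to -0.0887, antigen presentation to 0.113, contractile genes to -0.123, CXC chemokines to 0.524 and growth factors to -0.0629, and the median of IL1 pathway genes, near 0, to 0.000735, and the cause was not tested. Genes with few counts limit what the new and baseline classes can hold. No paired analysis was possible because the labels carry no replicate numbers. The replicate numbers used here were assigned in the order of the serial numbers in the library titles.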
